A study of Mus musculus with 12 samples.

Results

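The genes that make sterols and fatty acids were followed through the differentiation of MC3T3-E1 cells, an established line of mouse calvarial preosteoblasts whose cultures deposit and mineralize matrix. The set was a list of 34 genes, and its members were the rows whose probe annotation carried a listed symbol, current or older. Of the 34 genes, 30 were found, on 31 of 17504 rows, out of 12817 named genes. Hmgcs1, Pmvk, Acat2 and Insig1 had no row under these names and were not analysed here. The measured members fell into 16 genes of the sterol branch, 11 of the fatty acid branch, and 3 regulators and transport genes. The rule itself used no measured value, and the list was drawn up with earlier results of the data known.

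All cells carried the same treatment, 8-glycerol phosphate (as the labels spell it) and ascorbic acid, and no untreated culture was among the 12 samples. Total RNA was taken on Day 2, labelled log phase growth, on Day 5, labelled growth arrest, on Day 10, labelled differentiating osteoblast, and on Day 28, labelled mature osteoblast, with 3 arrays for each day. On each array the Cy3 channel held the cells and the Cy5 channel a purchased mouse reference RNA, so a value is a log2 ratio of the cells to that reference and not a level. A culture can hold cells at several stages, so fewer cells that make an RNA and less of it per cell cannot be told apart. A positive value was taken to mean more RNA in the cells, a likely reading that the labels do not state. Under that reading 13 of 16 measured genes of the mesenchymal and osteoblast lineage lay above 0 on average over the arrays, with a median of 1.72, while 0 of 7 macrophage genes did, with a median of -1.49. Of 19 genes of other lineages 11 lay above 0, with a median of 0.06. With the opposite sign all the directions given here would reverse.

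Of the 16 osteoblast lineage genes, Thy1, Vim and Lox averaged below the reference and the others above it. Mean log2 ratios ran from 2.10 to 2.69 over the 4 days for Col1a1, the main collagen chain of bone, and from 1.89 to 2.97 for Sp7, a transcription factor of osteoblasts. Alpl, bone alkaline phosphatase, lay at 0.33 ± 0.11 on Day 2 and 1.72 ± 0.23 on Day 28 (SD, n = 3). Sparc, a protein of bone matrix, rose by 1.30 from Day 2 to Day 28 (limma adjusted p = 0.00646). Postn, a matricellular protein, and Cdh11, a cadherin of osteoblasts, rose from Day 2 to Day 5, and Lox, which cross-links collagen, rose from Day 5 to Day 28. A pair of arrays stood apart, Day 5 replicate 2 and Day 10 replicate 3. Averaged over the arrays of the same day, their correlations came to 0.838 and 0.795, and those of the remaining arrays ran from 0.856 to 0.919. For Day 28 against Day 2 or Day 5, both values are given where a member passed with these arrays and not without them, or the reverse. The pair was singled out by its own disagreement with the other arrays, so the spread tends to narrow without it. Over all 4 days, 931 of 17504 rows were called with the pair and 1764 without it. A call made only without the pair is therefore not independent support.

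Cholesterol is built from acetyl-CoA by a chain of enzymes in which the mevalonate steps make isoprenoid units, squalene synthesis joins them, and the later steps cyclize squalene to lanosterol and trim it to cholesterol. Fatty acids are built from the same acetyl-CoA by acetyl-CoA carboxylase and fatty acid synthase, and then lengthened, desaturated and activated. Both branches are known targets of the SREBP transcription factors, of which SREBP-2, from Srebf2, acts mainly on sterol genes and SREBP-1, from Srebf1, mainly on fatty acid genes. Dividing cells need both products for new membrane.

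Sterol genes were lower in mature than in growth-arrested cells. Of 30 members, 14 passed the test between Day 5 and Day 28 (limma adjusted p under 0.05), against 4.71% of all rows, and 9 did between Day 2 and Day 28, against 5.69%. Of 16 measured sterol genes, 9 fell from Day 5 to Day 28 and 0 rose, in a comparison where 1.91% of all rows fell. Dhcr7 had the largest fall, 2.62-fold, followed by Msmo1, Fdps and Idi1. The median log2 difference over the branch was -0.81, against 0.00 over all rows. In 13 of the 16 genes every Day 28 array lay below every Day 5 array, which was so for 12.5% of all rows. From Day 2 to Day 28, 7 of the 16 fell and 0 rose, against 2.01% of all rows, with a median of -0.67. These comparisons share the Day 28 arrays and are not independent of each other.

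**Figure D1:**
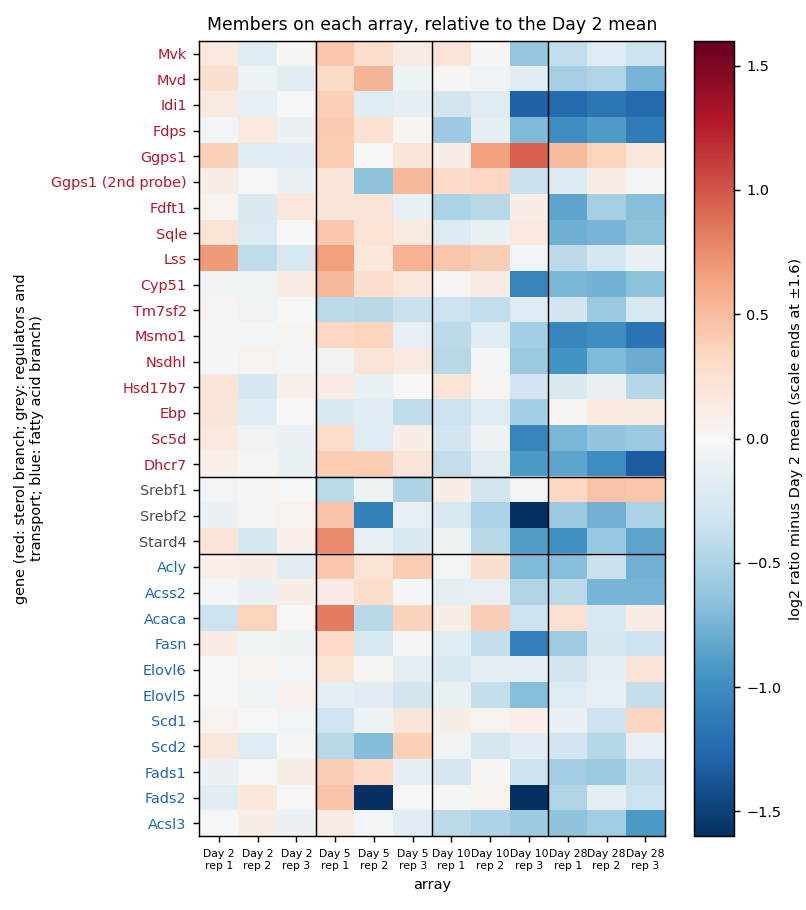
Each row is a probe of a member and each column an array. Colour gives the log2 ratio minus the gene's Day 2 mean, blue for lower and red for higher. Most sterol genes turn blue on the 3 Day 28 arrays, and among the Day 10 arrays replicate 3 is the lowest for 12 of 16 sterol genes.

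The mevalonate steps gave 3 of the falls. Idi1, isopentenyl diphosphate isomerase, which converts the isoprenoid unit into its reactive isomer, had log2 ratios on Day 2 of 1.32, 1.05 and 1.18 and on Day 5 of 1.56, 0.98 and 1.04. Its Day 10 arrays gave 0.89, 0.97 and -0.12, and its Day 28 arrays -0.06, 0.02 and -0.07. The Day 28 arrays lay close together and below all Day 2 and Day 5 arrays, while Day 10 held 2 arrays near the earlier level and 1, replicate 3, at the later one. Idi1 fell by 1.23 from Day 5 to Day 28 (SE 0.25, limma adjusted p = 0.0113) and by 1.22 from Day 2 to Day 28 (limma adjusted p = 0.00971). Without Day 5 replicate 1 the first of these calls was lost (adjusted p = 0.0544).

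Fdps, farnesyl diphosphate synthase, which joins isoprenoid units and is the enzyme that nitrogen-containing bisphosphonate drugs block in osteoclasts, measured 1.04, 1.23 and 0.98 on Day 2 and 1.50, 1.32 and 1.11 on Day 5. It then measured 0.50, 0.93 and 0.37 on Day 10 and 0.08, 0.17 and -0.04 on Day 28. Each day from Day 5 on lay below the one before without overlap, and the Day 28 mean of 0.07 ± 0.11 (SD, n = 3) was close to the reference. The fall from Day 5 was 1.24 (SE 0.16, limma adjusted p = 6.07e-04) and that from Day 2 was 1.02 (SE 0.16, limma adjusted p = 0.00203).

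Mvd, mevalonate diphosphate decarboxylase, the step before Idi1, had means of 0.17 ± 0.23, 0.43 ± 0.31, 0.10 ± 0.09 and -0.41 ± 0.14 on Days 2, 5, 10 and 28 (SD, n = 3). It fell by 0.84 from Day 5 (SE 0.17, limma adjusted p = 0.0122), and its difference from Day 2, -0.58, had an adjusted p = 0.068. The call against Day 5 was lost without Day 5 replicate 2 or without Day 28 replicate 3, with adjusted p up to 0.0641. The difference from Day 2 passed without both arrays that stood apart (limma adjusted p = 0.0343), without Day 5 replicate 3, with array weights and with the replicate block. Mvk, mevalonate kinase, went from 1.52 ± 0.16 on Day 5 to 0.93 ± 0.09 on Day 28, with no overlap of the arrays, and did not pass (difference -0.59, adjusted p = 0.106). It passed without both arrays that stood apart (-0.59, limma adjusted p = 0.0457), without Day 10 replicate 3 alone (limma adjusted p = 0.0229), with array weights and after quantile normalization. Ggps1 makes geranylgeranyl diphosphate for protein prenylation and lies off the path to sterols. Its 2 probes differed by 0.15 and -0.06 between Day 28 and Day 5, and neither passed in any comparison.

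Squalene synthesis and the next step also fell. Fdft1, squalene synthase, which commits isoprenoids to sterols, measured 1.16, 1.17 and 0.85 on Day 5 and 0.12, 0.44 and 0.29 on Day 28, a fall of 0.77 (SE 0.18, limma adjusted p = 0.0273). From Day 2 it fell by 0.68 (limma adjusted p = 0.0447). Both Fdft1 calls were lost without any 1 array of Day 28, that against Day 5 also without Day 5 replicate 1 or 2 (adjusted p up to 0.12). The call against Day 2 was lost in 8 of the 12 fits without 1 array (up to 0.167). Sqle, squalene epoxidase, which adds the first oxygen and is rate-limiting in the later part of the chain, measured 1.08, 0.88 and 0.79 on Day 5, 0.43, 0.54 and 0.80 on Day 10 and -0.13, -0.09 and -0.01 on Day 28. All 3 Day 28 arrays of Sqle lay just below the reference, and the fall of 1.00 from Day 5 had an SE of 0.15 (limma adjusted p = 0.00175). From Day 2 the fall was 0.73 (limma adjusted p = 0.0111), with an adjusted p = 0.0506 without Day 28 replicate 1. Its Day 10 arrays lay close to those of Day 2 (0.87, 0.43 and 0.64). Lss, lanosterol synthase, went from 0.61 ± 0.26 on Day 5 to -0.13 ± 0.15 on Day 28, a difference of -0.74 that did not pass (adjusted p = 0.127), and its Day 2 arrays were widely spread (0.82, -0.27 and -0.12).

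Among the enzymes that trim lanosterol, Msmo1 had the smallest p of all members. Msmo1, methylsterol monooxygenase, which with Nsdhl removes the C-4 methyl groups, gave 1.14, 1.14 and 1.20 on Day 2 and 1.49, 1.52 and 1.03 on Day 5. It gave 0.74, 0.97 and 0.61 on Day 10, then 0.12, 0.17 and -0.02 on Day 28. The Day 28 arrays lay below all others and the Day 10 arrays lay between them and those of Days 2 and 5, with no overlap. Msmo1 fell 2.38-fold from Day 5 (log2 difference -1.25, SE 0.15, limma adjusted p = 3.54e-04) and 2.09-fold from Day 2 (-1.07, limma adjusted p = 8.87e-04). Nsdhl, a sterol dehydrogenase of the same complex, had means of 0.82 ± 0.05, 0.92 ± 0.14, 0.47 ± 0.29 and 0.00 ± 0.12 on the 4 days in order (SD, n = 3). It fell by 0.92 from Day 5 (limma adjusted p = 0.00347) and by 0.82 from Day 2 (limma adjusted p = 0.00577).

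Dhcr7, 7-dehydrocholesterol reductase, makes cholesterol from the compound that is also the precursor of vitamin D. Its ratios on Day 2 were 0.86, 0.82 and 0.67, and on Day 5 they were 1.18, 1.18 and 0.98. They were then 0.39, 0.61 and -0.14 on Day 10, and -0.06, -0.21 and -0.55 on Day 28. Day 5 was the highest day without overlap, and Day 10 replicate 3 lay among the Day 28 arrays. Its fall from Day 5, 1.39 (SE 0.19, limma adjusted p = 7.06e-04), was the largest among the members, and its fall from Day 2 was 1.06 (limma adjusted p = 0.00388). Cyp51, lanosterol demethylase, went from 1.82 ± 0.18 on Day 5 to 0.78 ± 0.05 on Day 28 and fell by 1.04 (SE 0.24, limma adjusted p = 0.0268). Between Day 2 and Day 28 its difference was -0.72 (adjusted p = 0.117), with Day 10 at 1.52, 1.62 and 0.43. Without Day 10 replicate 3 that difference of -0.72 passed (limma adjusted p = 0.0038), as it did without both arrays that stood apart (limma adjusted p = 0.00411), with array weights and after quantile normalization. The fall from Day 5 was lost without any 1 array of Day 5 or Day 28 (adjusted p up to 0.103).

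The RefSeq promoter table held a start region for several of these genes. The bases before the start are shown for the 5 members with the smallest p in the F test over the 4 days that the table held, so that the binding motifs counted further on can be seen in place. Each runs 5′ to 3′ on the gene's strand, with capitals for a CCAAT box (CCAAT or ATTGG), a GC box (GGGCGG or CCGCCC), an E-box (CACGTG) or the sterol response element letters TCACNCCAC on either strand. The 250 bases lie, in GRCm38.p6, at chr8:64733579-64733828 on the minus strand for Msmo1, chr7:143822917-143823166 on the plus strand for Dhcr7, chrX:72918271-72918520 on the plus strand for Nsdhl, chr1:78657575-78657824 on the plus strand for Acsl3 and chr13:8885356-8885605 on the plus strand for Idi1.
Msmo1: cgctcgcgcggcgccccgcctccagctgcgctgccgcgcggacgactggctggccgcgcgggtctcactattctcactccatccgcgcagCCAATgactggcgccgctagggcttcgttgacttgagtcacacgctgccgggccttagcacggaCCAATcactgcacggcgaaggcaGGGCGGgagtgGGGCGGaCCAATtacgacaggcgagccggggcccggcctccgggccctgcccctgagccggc
Dhcr7: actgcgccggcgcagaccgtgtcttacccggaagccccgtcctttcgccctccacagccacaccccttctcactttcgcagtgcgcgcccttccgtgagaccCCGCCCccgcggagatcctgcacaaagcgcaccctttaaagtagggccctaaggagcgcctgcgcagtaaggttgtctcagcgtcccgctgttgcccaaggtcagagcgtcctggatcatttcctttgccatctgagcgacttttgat
Nsdhl: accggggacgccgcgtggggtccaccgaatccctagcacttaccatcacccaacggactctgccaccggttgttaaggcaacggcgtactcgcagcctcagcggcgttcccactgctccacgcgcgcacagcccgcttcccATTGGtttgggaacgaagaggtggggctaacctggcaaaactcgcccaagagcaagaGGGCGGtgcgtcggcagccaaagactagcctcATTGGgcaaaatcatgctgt
Acsl3: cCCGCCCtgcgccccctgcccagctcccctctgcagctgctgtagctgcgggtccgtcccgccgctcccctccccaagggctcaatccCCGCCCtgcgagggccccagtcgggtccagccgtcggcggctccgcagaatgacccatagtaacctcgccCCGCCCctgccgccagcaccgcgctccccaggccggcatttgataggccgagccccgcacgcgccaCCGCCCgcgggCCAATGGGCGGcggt
Idi1: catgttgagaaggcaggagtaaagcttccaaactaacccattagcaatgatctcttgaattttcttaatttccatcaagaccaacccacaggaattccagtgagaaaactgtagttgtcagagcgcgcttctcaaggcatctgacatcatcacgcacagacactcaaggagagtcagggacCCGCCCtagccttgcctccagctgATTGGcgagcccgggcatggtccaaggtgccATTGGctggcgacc

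In the Msmo1 sequence 3 CCAAT boxes began at positions -160, -96 and -55 from the start, with GC boxes at -73 and -62. Nsdhl and Idi1 carried 2 CCAAT boxes each, all on the opposite strand, Acsl3 carried 1, which runs directly into a GC box, and Dhcr7 carried 1 GC box and no CCAAT box in this window. Of the 30 measured members, 23 had a promoter in the table, 13 of the sterol and 8 of the fatty acid branch, and the first window listed for a gene was searched over its 250 bases before the start. A CCAAT box stood in 12 of 13 sterol promoters (92.3%) and in 4 of 8 fatty acid promoters (50%), against 35.8% of the 10220 genes with a row on the array and a promoter in the table. A GC box stood in 12 of 13 sterol promoters and 4 of 8 fatty acid promoters, against 50.5% of those genes. An E-box stood in 2 of 13 sterol and 1 of 8 fatty acid promoters, against 7.75%. The sterol response element letters TCACNCCAC stood in none of the measured members' windows, against 0.978%. A match describes letters and is not a binding site, and the absence of the letters from a window says nothing of the factor.

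**Figure D2:**
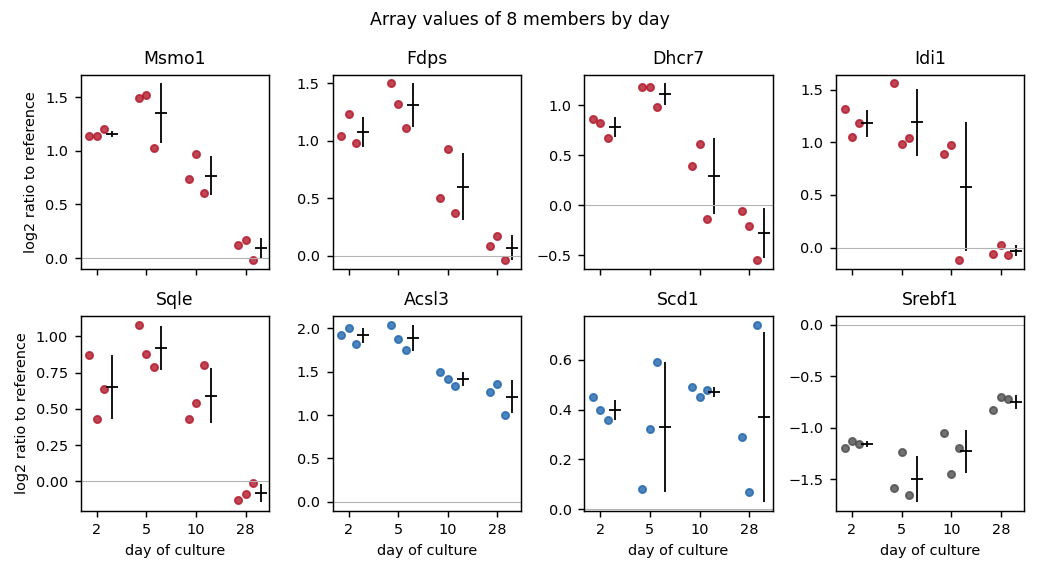
Points are the log2 ratios to the reference of single arrays, and the dash with its bar is the mean with the SD of 3 arrays, by day of culture, with vertical scales that differ between panels. Msmo1, Fdps, Dhcr7, Idi1 and Sqle (red) and Acsl3 (blue) are lower on Day 28 than on Day 5, Scd1 (blue) shows no such difference, and Srebf1 (grey) is higher on Day 28.

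Among the other late enzymes, Sc5d, sterol C5-desaturase, had the highest ratios of the branch, and averaged 2.20 ± 0.13 and 2.26 ± 0.26 on the 2 early days and 1.73 ± 0.51 and 1.55 ± 0.07 on the later ones (SD, n = 3). Its Day 28 arrays lay below all those of Days 2 and 5, yet neither difference passed (-0.65 from Day 2, adjusted p = 0.105, and -0.71 from Day 5, adjusted p = 0.0834). Without both arrays that stood apart both passed (-0.65, limma adjusted p = 0.00681, and -0.85, limma adjusted p = 0.00502), and they passed as well without Day 10 replicate 3 alone and with array weights. After quantile normalization they were -1.14 (limma adjusted p = 0.00162) and -0.95 (limma adjusted p = 0.00846). Hsd17b7, which reduces the 3-keto group after demethylation, differed by -0.27 from Day 5 (SE 0.17, adjusted p = 0.472). Tm7sf2, a sterol C14-reductase of the endoplasmic reticulum, measured 1.56, 1.46 and 1.53 on Day 2 and then stayed between 0.93 and 1.31 on all 9 later arrays. Its difference between Day 28 and Day 2, -0.38, did not pass (SE 0.13, adjusted p = 0.11), but was -0.72 and passed after quantile normalization (limma adjusted p = 0.00613), and that between Day 28 and Day 5 was 0.03. Ebp, the sterol isomerase that shifts the double bond of the ring, lay the other way, at 1.10, 1.17 and 0.93 on Day 5 and 1.38, 1.50 and 1.48 on Day 28. The Ebp arrays did not overlap, but the difference of 0.39 did not pass (SE 0.14, adjusted p = 0.162).

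Regulators and transport genes did not move as one. Srebf1 was low against the reference on every array and the arrays of Day 28 were its highest. Its Day 2 ratios were -1.20, -1.13 and -1.16, and those of Day 5 were -1.59, -1.24 and -1.65. Those of Day 10 were -1.05, -1.45 and -1.20, and those of Day 28 were -0.83, -0.70 and -0.72. Srebf1 rose by 0.74 from Day 5 to Day 28 (SE 0.15, limma adjusted p = 0.0101), the 1 rise among the members in that comparison, where 2.8% of all rows rose. Without Day 28 replicate 2 the call was lost (adjusted p = 0.0517). Against Day 2 its difference of 0.41 did not pass (adjusted p = 0.139) and passed after quantile normalization (0.55, limma adjusted p = 0.034). RNA of Srebf1 says nothing of the cleaved, active protein.

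Srebf2 depended on the arrays that stood apart. On Day 2 it gave 0.38, 0.50 and 0.52, and on Day 5 it gave 0.92, -0.61 and 0.34. Day 10 gave 0.22, -0.04 and -1.17, and Day 28 gave -0.11, -0.30 and -0.02. The low values of Days 5 and 10 are those of Day 5 replicate 2 and Day 10 replicate 3, and the Day 28 arrays lay below all Day 2 arrays. With all 12 arrays its differences on Day 28 were -0.61 from Day 2 (SE 0.36, adjusted p = 0.413) and -0.36 from Day 5 (SE 0.36, adjusted p = 0.68). Without both arrays they were -0.61 (SE 0.16, limma adjusted p = 0.0325) and -0.77 (SE 0.18, limma adjusted p = 0.0268). Stard4, a carrier that moves cholesterol between membranes, had means of 0.49 ± 0.25, 0.62 ± 0.55, 0.02 ± 0.40 and -0.32 ± 0.19 on the 4 days in order (SD, n = 3). Its difference of -0.94 from Day 5 to Day 28 missed the threshold (adjusted p = 0.0565), and without both arrays it was -1.07 and passed (limma adjusted p = 0.0325), as did that of -0.81 from Day 2 (limma adjusted p = 0.047).

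The fatty acid branch changed in part. From Day 5 to Day 28, 4 of 11 genes fell and 0 rose, against 1.91% of all rows that fell, and from Day 2 to Day 28, 2 of 11 fell, against 2.01%. The genes that fell supply acetyl-CoA, activate fatty acids or desaturate them, and the carboxylase and the synthase themselves did not pass. The median difference was -0.21 from Day 5 and -0.32 from Day 2. Against Day 5 the arrays did not overlap and lay lower on Day 28 in 5 of 11 genes, against 12.5% of all rows.

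Acly, ATP-citrate lyase, which makes cytosolic acetyl-CoA from citrate for both branches, measured 0.54, 0.33 and 0.51 on Day 5, 0.07, 0.36 and -0.60 on Day 10 and -0.57, -0.25 and -0.66 on Day 28. All Day 28 arrays lay below the reference and all Day 5 arrays above it, and the fall was 0.95 (SE 0.21, limma adjusted p = 0.0198). It was lost without Day 5 replicate 1 or 3 or Day 28 replicate 1 or 3 (adjusted p up to 0.0899). From Day 2 its difference of -0.61 did not pass (adjusted p = 0.127), and without both arrays that stood apart it did (limma adjusted p = 0.0225). Acss2, which makes acetyl-CoA from acetate, measured 0.92, 1.07 and 0.76 on Day 5 and 0.36, 0.05 and 0.05 on Day 28. It fell by 0.76 from Day 5 (SE 0.15, limma adjusted p = 0.00925) and by 0.63 from Day 2 (limma adjusted p = 0.0227). The first call was lost without Day 28 replicate 2 (adjusted p = 0.0529), the second without any 1 array of Day 2 or without Day 28 replicate 2 or 3 (adjusted p up to 0.105).

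Acsl3, which activates long-chain fatty acids at the endoplasmic reticulum and on lipid droplets, had the highest ratios of the branch. The Day 2 arrays gave 1.92, 2.01 and 1.82, and the Day 5 arrays 2.04, 1.88 and 1.75. The Day 10 arrays gave 1.50, 1.42 and 1.34, and the Day 28 arrays 1.27, 1.36 and 1.00. Both early days lay above both later days with no overlap. Neither the step of Acsl3 from Day 5 to Day 10 (-0.47, adjusted p = 0.27) nor that from Day 10 to Day 28 (-0.21, adjusted p = 0.636) passed alone. Whether the steps differ was not tested. The fall from Day 2 to Day 28 was 0.70 (SE 0.14, limma adjusted p = 0.00734), or 1.13 after quantile normalization, and that from Day 5 was 0.68 (limma adjusted p = 0.0113), a call lost without Day 5 replicate 1 or Day 28 replicate 3 (adjusted p up to 0.0648). Fads1, the delta-5 desaturase of polyunsaturated fatty acids, went from 0.71 ± 0.29 on Day 5 to 0.01 ± 0.11 on Day 28 (SD, n = 3). It fell by 0.70 (SE 0.16, limma adjusted p = 0.0231), a call that was lost from the 6 arrays of the compared days alone, without both arrays that stood apart (adjusted p = 0.0538), and without Day 5 replicate 1 or 2 or Day 28 replicate 1 or 2 (adjusted p up to 0.102). The Fads1 difference from Day 2, -0.51, had an adjusted p = 0.086 and passed with array weights and without Day 5 replicate 3.

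Fasn, fatty acid synthase, was at 0.10 ± 0.12, 0.10 ± 0.28, -0.46 ± 0.47 and -0.29 ± 0.16 on the 4 days in order (SD, n = 3). Its Day 28 arrays lay below those of Day 2 and Day 5 without overlap, but the differences of -0.39 and -0.40 did not pass (adjusted p = 0.371 and adjusted p = 0.37). Acaca, acetyl-CoA carboxylase, differed by -0.21 from Day 5 to Day 28 (SE 0.29, adjusted p = 0.782), with Day 5 arrays spread from -0.90 to 0.36. Fads2, the delta-6 desaturase, had the largest spread within a day of all members. It measured 1.27, -0.79 and 0.82 on Day 5 and 0.80, 0.88 and -1.08 on Day 10, and the low arrays were again Day 5 replicate 2 and Day 10 replicate 3. The Fads2 difference between Day 28 and Day 5 was 0.06 (SE 0.51) with all arrays and -0.55 (SE 0.17, adjusted p = 0.0889) without both.

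The remaining enzymes that shape fatty acid chains showed little difference. Scd1 and Scd2, stearoyl-CoA desaturases that make monounsaturated fatty acids, are close relatives, and their probes can share signal. Scd1 had means between 0.33 and 0.47 on the 4 days, and its difference between Day 28 and Day 5 was 0.04 (SE 0.17, adjusted p = 0.948). Scd2 had means between -0.05 and 0.25 and a difference of -0.05 (SE 0.22, adjusted p = 0.942). Elovl6, which lengthens saturated chains, differed by -0.12 (SE 0.15) and Elovl5, which lengthens polyunsaturated ones, by -0.04 (SE 0.15). A p above the threshold does not show that a gene was constant.

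**Figure D3:**
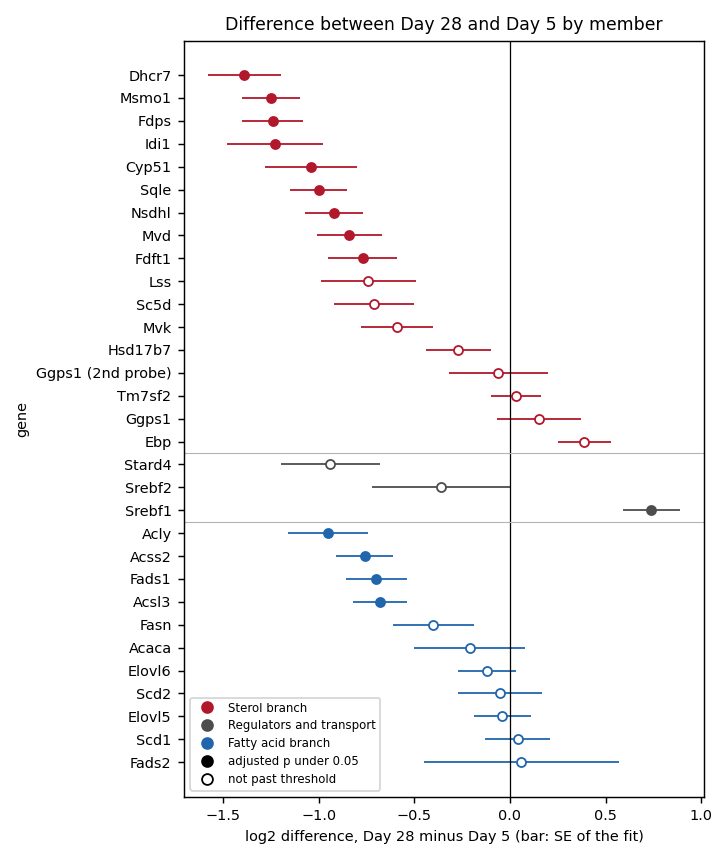
Points give the log2 difference, Day 28 minus Day 5, for each probe of a member, with the standard error of the fit as a bar. Filled points passed the threshold. The sterol genes (red) reach from -1.39 for Dhcr7 to 0.39 for Ebp, the fatty acid genes (blue) from -0.95 for Acly to 0.06 for Fads2, and Srebf1 (grey) stands at 0.74.

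Set side by side, the branch medians differed in size. From Day 5 to Day 28, 13 of 16 sterol genes (81.2%) and 9 of 11 fatty acid genes (81.8%) had a difference below 0. The share of all rows was 50.3%. From Day 2 to Day 28 it was 14 of 16 and 10 of 11, against 51.9% of all rows. The sterol median was 0.60 lower than the fatty acid median in Day 28 against Day 5 and 0.35 lower in Day 28 against Day 2. On single arrays the difference of the branch medians had a pooled SD within days of 0.15. That SD belongs to single arrays and is not the spread of these gaps, which was not estimated. Without Day 5 replicate 2 the first gap was -0.31, because the fatty acid median became -0.55. Without Day 28 replicate 2 it was -0.78. The median sterol ratio on single arrays was 1.05 to 1.17 on Day 2, 1.01 to 1.17 on Day 5, 0.62 to 0.97 on Day 10 and 0.12 to 0.31 on Day 28. For the fatty acid branch it was 0.24 to 0.43, 0.21 to 0.51, 0.03 to 0.36 and -0.07 to 0.12. Over the 12 arrays all 16 sterol genes averaged above the reference, against 51.2% of all rows, and 8 of 11 fatty acid genes did. Whether the shares of genes that fell differ between the branches was not tested.

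**Figure D4:**
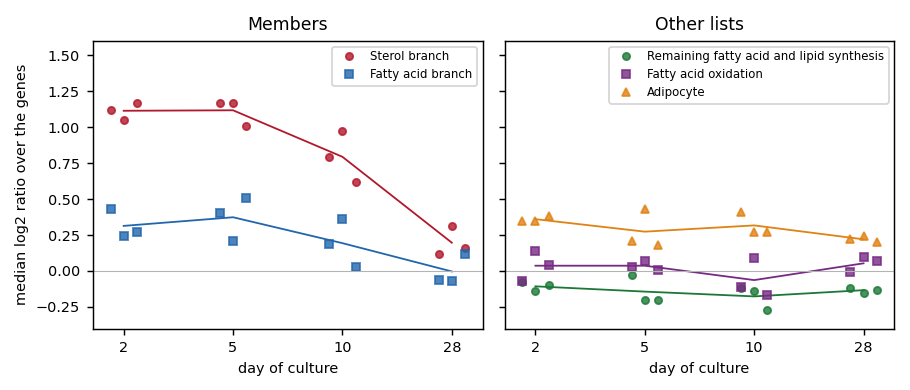
Each point is the median log2 ratio over the genes of a list on one array, by day of culture, and lines join the day means. On the left the sterol branch goes from 1.05 to 1.17 on Day 2 to 0.12 to 0.31 on Day 28 and the fatty acid branch from 0.24 to 0.43 to -0.07 to 0.12. On the right the remaining lipid synthesis, fatty acid oxidation and adipocyte lists are shown on the same scale.

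No member was called at a step between neighbouring days with all 12 arrays. Between Day 2 and Day 5, 0 of 30 members passed in limma (2 at an unadjusted p under 0.05, against 10.1% of all rows), where 0.337% of all rows did, and 13 of 16 sterol genes had a higher mean on Day 5. The 2 were Tm7sf2 (-0.41) and Srebf1 (-0.33), both lower on Day 5, so a rise to Day 5 was not shown for any single member. Day 5 was the day of the highest mean for 12 of 16 sterol genes and 6 of 11 fatty acid genes, against 23.9% of all rows, and Day 28 that of the lowest mean for 13 of 16 and 5 of 11, against 28.2%. The sterol median of the difference between Days 2 and 5 was 0.19, with single genes from -0.41 for Tm7sf2 to 0.46 for Lss.

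From Day 5 to Day 10 again 0 members passed (15 at an unadjusted p under 0.05, against 8.99% of all rows), where 0.149% of all rows were called. The sterol median was -0.39 and the fatty acid median -0.23. The difference was -0.83 for Dhcr7, with an adjusted p = 0.109, and -0.71 for Fdps, with an adjusted p = 0.118. On Day 10, replicate 3 was the lowest array for 12 of 16 sterol and 8 of 11 fatty acid genes. Without it the sterol median of this step was -0.26 and the fatty acid median -0.23.

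From Day 10 to Day 28, 0 of 30 members passed in limma with all arrays (11 at an unadjusted p under 0.05, against 10.8% of all rows), where 0.84% of all rows were called. The sterol median was -0.44 and the fatty acid median -0.10. Sqle (-0.67) and Msmo1 (-0.68) came closest, each with an adjusted p = 0.0613. Without Day 10 replicate 3, Idi1 (-0.96, limma adjusted p = 0.0177), Cyp51 (-0.79, limma adjusted p = 0.018), Dhcr7 (-0.77, limma adjusted p = 0.0413) and Msmo1 (-0.76, limma adjusted p = 0.0466) fell, against 0.263% of all rows, and the sterol median was -0.56. With array weights 4 members fell as well, with Sqle in place of Cyp51, where 133 of 17504 rows fell. In 13 of 16 sterol genes and 4 of 11 fatty acid genes the mean went down at both of these steps, against 21.6% of all rows. The steps share the Day 10 arrays.

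Over all 4 days at once, the F test found a change for 10 of 30 members, against 5.32% of all rows. These were Msmo1 (adjusted p = 9.32e-04), Fdps, Dhcr7, Sqle, Nsdhl, Idi1 and Mvd of the sterol branch, Acsl3 (adjusted p = 0.012) and Acss2 of the fatty acid branch, and Srebf1 (adjusted p = 0.0383). Without both arrays that stood apart the F test called 15 members, 10 sterol genes, 3 fatty acid genes and 2 regulators and transport genes, against 10.1% of all rows. In the same fit 15 members fell from Day 2 to Day 28, 10 of them sterol genes and 3 fatty acid genes, against 9.73% of all rows called. From Day 5 to Day 28, 17 members were called, 11 of them sterol genes and 3 fatty acid genes, against 5.87%.

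Other genes of sterol handling are given beside the synthesis enzymes, with no test of the lists against each other. Of 13 measured genes of the remaining sterol synthesis and uptake list, 0 fell and 2 rose from Day 2 to Day 28, where 3.68% of all rows rose, with a median of 0.00. From Day 5 to Day 28, 0 fell and 1 rose, where 2.8% of all rows rose, with a median of 0.04. Cyb5a, cytochrome b5, an electron donor for sterol and fatty acid oxidations, went from 1.00 ± 0.09 on Day 2 to 2.29 ± 0.29 on Day 28 (SD, n = 3), a rise of 1.29 (SE 0.17, limma adjusted p = 5.18e-04), and rose by 0.91 from Day 5. Npc2, which carries cholesterol out of lysosomes, rose by 0.71 (SE 0.16, limma adjusted p = 0.0206). Among 9 measured sterol efflux genes and liver X receptor targets, 2 rose and 0 fell from Day 5 to Day 28, where 2.8% of all rows rose. The median of this list was 0.17, with 3 genes below 0 and the lowest at -0.42. Abcg4, a sterol exporter, rose from Day 5 to Day 28 by 1.22 (SE 0.29, limma adjusted p = 0.0274), with Day 28 arrays at 0.56, 1.48 and 0.52. From Day 2 to Day 28, 1 of the 9 rose and 0 fell, where 3.68% of all rows rose. That was Abcg4, by 1.10 (limma adjusted p = 0.0406). Mylip, a ubiquitin ligase that marks the LDL receptor for breakdown, rose by 0.56 from Day 5 to Day 28 (SE 0.14, limma adjusted p = 0.0323). It was not called between Day 2 and Day 28, and its means were 1.34, 1.07, 1.72 and 1.64 on the 4 days in order.

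Other genes of lipid metabolism were called between Day 5 and Day 28 at about the share of all rows, 4.71%. Of 30 measured genes of the remaining fatty acid and lipid synthesis list, 1 rose and 1 fell, with a median of -0.01. Hacd2, a dehydratase of fatty acid elongation, rose by 0.82 (SE 0.14, limma adjusted p = 0.00422), and Elovl1, which lengthens very long chains, fell by 0.62 (SE 0.16, limma adjusted p = 0.039). Of 22 genes of fatty acid oxidation 1 fell, Acadm, the medium-chain acyl-CoA dehydrogenase, by 0.62 (SE 0.13, limma adjusted p = 0.0157), and the median was -0.05.

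Adipocyte markers were examined because fat cells make fatty acids in quantity. Among 9 measured markers, array medians were 0.35 to 0.38 on Day 2, 0.18 to 0.43 on Day 5, 0.27 to 0.41 on Day 10 and 0.20 to 0.24 on Day 28. Cebpa, a transcription factor shared with other lineages, rose from Day 2 to Day 28 by 1.64 (SE 0.19, limma adjusted p = 1.05e-04). It had already risen by 1.26 from Day 2 to Day 5 (SE 0.19, limma adjusted p = 0.0115), and was not called between Day 5 and Day 28. Adipoq, adiponectin, fell from Day 5 to Day 28 by 0.49 (SE 0.12, limma adjusted p = 0.0331). The means of Fabp4, a fatty acid carrier of fat cells, lay between 0.50 and 0.73. Those of Pparg lay between -0.60 and -0.40, those of Lep between -0.24 and -0.07, and those of Plin4 between -0.63 and -0.02. Averaged over the arrays, 6 of the 9 markers lay above 0. Between Day 2 and Day 28, 1 of the 9 was called, against 5.69% of all rows. Between Day 5 and Day 28 it was also 1 of 9, against 4.71%. Ratios to a pooled reference do not show whether such markers are expressed at all, and the part of adipocytes in the members' values was not tested.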

How the data were processed

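MC3T3-E1 RNA of 4 days, 3 arrays each, was measured on slides printed with long oligonucleotides. The values are log2 ratios of cells to reference as deposited by the authors, with the base of the logarithm assumed and the direction read from marker genes. R version 2.13.0 appears in the submitters' processing notes. How background, normalization and weak spots were handled is not given in the sources used here, and the values do not show how bright a spot was. Over the 17664 deposited rows the largest array median was 0.0132 from 0 and no value was missing. Nothing in the labels says that replicates were separate cultures. The p-values therefore reflect only array-to-array spread, which may be technical, and the number of arrays limits precision.

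Gene names came from the platform's annotation of its probes and were brought up to date by identifier with a RefSeq table (13908 of 14010 rows with 1 gene matched, 13 rows had several genes and 3641 none). For 10 genes printed 17 times, the 170 spots were averaged, leaving 17504 rows. Each array was centred on its median, and a linear model with 1 mean per day (limma 3.58.1 under R 4.3.3, functions lmFit and eBayes, 8 residual and 5.23 prior degrees of freedom) was fitted to all 12 arrays, with p-values adjusted by Benjamini-Hochberg over all rows and 0.05 as the threshold. The code of the fit was checked on simulated data with noise of the same size on every array. That check does not cover arrays that stand apart. Genes are said to rise or fall where their difference passed. The earlier day was subtracted from the later, and list counts and medians use the lowest-numbered probe of a gene. All measured members are described. Of other lists, the genes named are those past the threshold, with Col1a1, Sp7, Alpl, Thy1, Vim, Fabp4, Pparg, Lep and Plin4 added after their values were seen. The members and lists were chosen with earlier results of these data known. Promoter sequences are those of RefSeq for GRCm38.p6. Alternatives were other scalings, array weights, a robust prior, a replicate block, the 6 arrays compared, averaged probes, rows with 1 gene, and arrays left out.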

Additional observations from a re-analysis of the deposited data

How the results depend on the processing

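Of 23 differences called for single members, all kept their direction under the 10 other settings and the 12 fits without 1 array, and 11 kept their call in all of them, those of Msmo1, Fdps, Nsdhl and Dhcr7 in both comparisons with Day 28 (Day 2 and Day 5), of Idi1 and Acsl3 against Day 2 and of Sqle against Day 5. The call of Fdft1 against Day 2 was held in 4 of the 12 fits, and was lost with the replicate block. The call of Cyp51 against Day 5 was held in 6 and lost without any 1 array of Day 5 or Day 28. The count of members called in Day 28 against Day 2 (9) became 15 with array weights, 16 from the 6 arrays alone and 15 without both arrays that stood apart, and was 7 to 12 without 1 array. Calls over all 17504 rows went from 996 to 1702, 1549 and 1704 under these settings, in that order, and were 529 to 1431 without 1 array. In Day 28 against Day 10 the members' count went from 0 to 4 with array weights and to 4 without both arrays (0 to 4 without 1 array, 4 without Day 10 replicate 3 and 1 without Day 5 replicate 3). That of all rows went from 147 to 420 and 261, with 198 without Day 10 replicate 3 and 133 without Day 5 replicate 3. The F test count of 10 became 16 with array weights (6 to 14 without 1 array, 6 without Day 2 replicate 3 or Day 28 replicate 2 or 3). The 14 of Day 28 against Day 5 were 8 to 17 without 1 array, 8 without Day 5 replicate 1 and 9 without Day 28 replicate 2 or 3. Over all rows, 824 calls became 542 without Day 5 replicate 1, 404 without Day 28 replicate 2 and 450 without Day 28 replicate 3. The sterol median of Day 28 against Day 2 was -0.81 after quantile normalization. Without both arrays the sterol median of Day 28 against Day 10 was -0.56, the fatty acid median of Day 28 against Day 5 -0.55 and the gap between branches there -0.31. Without 1 array, sterol medians ranged from -0.48 to -0.26 (Day 10 against Day 5) and from -0.56 to -0.34 (Day 28 against Day 10). Fatty acid medians ranged from -0.44 to -0.15 (the lowest without Day 10 replicate 2), from -0.20 to 0.05 (the highest without Day 28 replicate 2) and, in Day 28 against Day 5, from -0.55 to -0.09. The gap ranged from -0.18 to 0.03, from -0.55 to -0.22 and from -0.78 to -0.31 in these 3 comparisons. The causes were not tested. The labels tie same-numbered replicates by a number only. Correlations of their deviations from the day means were -0.271 to 0.205, and 2 of 12 arrays were nearest to their own number. Deviations from a mean of 3 arrays depend on each other, and whether such arrays shared a culture or batch was not tested. With the replicate block 9 members were called in Day 28 against Day 2, 15 in Day 28 against Day 5 and 9 in the F test. Of all 17504 rows, 799, 683 and 697 were called there, in that order.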
